A study of Mus musculus with 28 samples.

Results

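A rule with a wide margin took 77 of the 34839 mouse genes measured. In these, the transcript that supplied the largest part of the gene's RNA in wild-type testis was another one than in testes where meiosis is arrested. The genes were chosen from the deposited transcript values. Each gene's transcripts were summed, 4694 genes with a sum of at least 20 in all 5 mRNA columns were kept, and each transcript's share was its value divided by that sum. A gene was taken if the wild-type share of 1 of its transcripts differed by at least 0.6, in the same direction, from its share in each of the 4 knockout libraries. The choice therefore rests on the wild-type and knockout shares, which are given as a description with no test. Of the genes kept, 4125 had at least 2 annotated transcripts, and the 77 are 1.87% of these. Genes with a smaller difference or a lower sum were not taken, so 77 is not a count of all genes that change their leading transcript.

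The study examined the domains of PRDM9, a histone methyltransferase that places meiotic recombination sites, by mRNA, microRNA, histone-mark and DNA-break sequencing. The mRNA libraries came from whole testis of C57BL/6 mice: 2 from Prdm9 KO mice, 2 from Hop2 KO mice and 1 from a wild-type animal labelled adult. Neither the age of the knockout mice nor the deleted exons are given in the sources used here. The break map (SSDS, which sequences single-stranded DNA bound at meiotic breaks) came from 1 testis library of Prdm9 (K/K) mice, whose PRDM9 lacks the KRAB domain.

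Spermatogonia divide, enter meiosis as spermatocytes, pass the pachytene stage, divide again and become haploid spermatids, which are remodelled into sperm. Without PRDM9, or without HOP2 (encoded by Psmc3ip, a partner of the strand-exchange recombinases), spermatocytes fail to complete homologous synapsis and are lost in meiotic prophase, so the testis lacks later germ cells. A gene can make different RNAs by starting at another promoter, by joining other exons or by ending at another polyadenylation site. Testis is known for all of these, with many promoters and short 3′ ends used in spermatocytes and spermatids alone.

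The libraries differed in markers of cell type. Summed values of 15 spermatid markers were 19.7 to 57.2 in the knockouts and 134553 in wild type, with no marker at 0 in all knockouts, and those of 10 pachytene and later spermatocyte markers were 188 to 214 against 10682. The 10 early meiotic markers summed to 415 to 453 against 473 as deposited, with Spo11 and Rec8 at least 2-fold higher and Dmc1 and Stra8 at least 2-fold lower in wild type. The 10 spermatogonial markers summed to 628 to 736 against 197, with the largest part from Uchl1, at 309 to 437 against 102. Of these 10, 7 were at least 2-fold lower in wild type, while Gfra1 and Nanos3 were above every knockout there as deposited. Of the 10 Sertoli, 7 Leydig and 7 macrophage markers, all 24 were at least 2-fold lower in wild type. Their sums were 2698 to 3576 against 597, 26004 to 73273 against 5884, and 513 to 927 against 89.0. Of 5 markers each of peritubular myoid cells, endothelium and red blood cells, 3, 3 and 1 were at least 2-fold lower. None of these was 2-fold higher in wild type, though the red cell marker Alas2 was above every knockout there as deposited. In bulk tissue fewer cells of a type and less RNA per cell cannot be told apart, and the part of cell content in the transcript shares was not tested. Psmc3ip stood at 3.51 and 5.06 in the Hop2 KO libraries, 22.8 and 26.4 in the Prdm9 KO libraries and 197 in wild type; Prdm9 stood at 4.73 and 5.93 in the Prdm9 KO libraries, 10.7 and 15.0 in the Hop2 KO libraries and 6.20 in wild type. The columns are headed TPM but sum to 825459 to 953598 in the knockouts and 1.62266e+06 in wild type, and the read depth is unknown, so levels below are deposited values. Rescaling all columns to 1 sum multiplies wild-type values by 0.545 relative to the mean of the knockouts; shares do not depend on it.

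The leading transcript differed between wild type and knockouts in every one of the 77 genes, which the choice of genes makes likely by itself. The leading transcript of wild type led in none of the knockout libraries for all 77 genes, and 68 genes had the same leading transcript in all 4 knockouts. The wild-type leader held at least 50% of the gene in wild type in 69 genes and the knockout leader held at least 50% in every knockout in 60. In 41 genes the wild-type leader had a share under 5% in every knockout, and in 18 of these under 1%. In 21 genes the knockout leader was under 5% in wild type. In all, 105 transcripts passed the 0.6 difference, 59 with the higher share in wild type and 46 with the higher share in the knockouts. One transcript passed in each direction in 28 genes. The genes had a median of 6 annotated transcripts, as did all kept genes with at least 2, and 8 of the 77 had just 2.

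**Figure D1:**
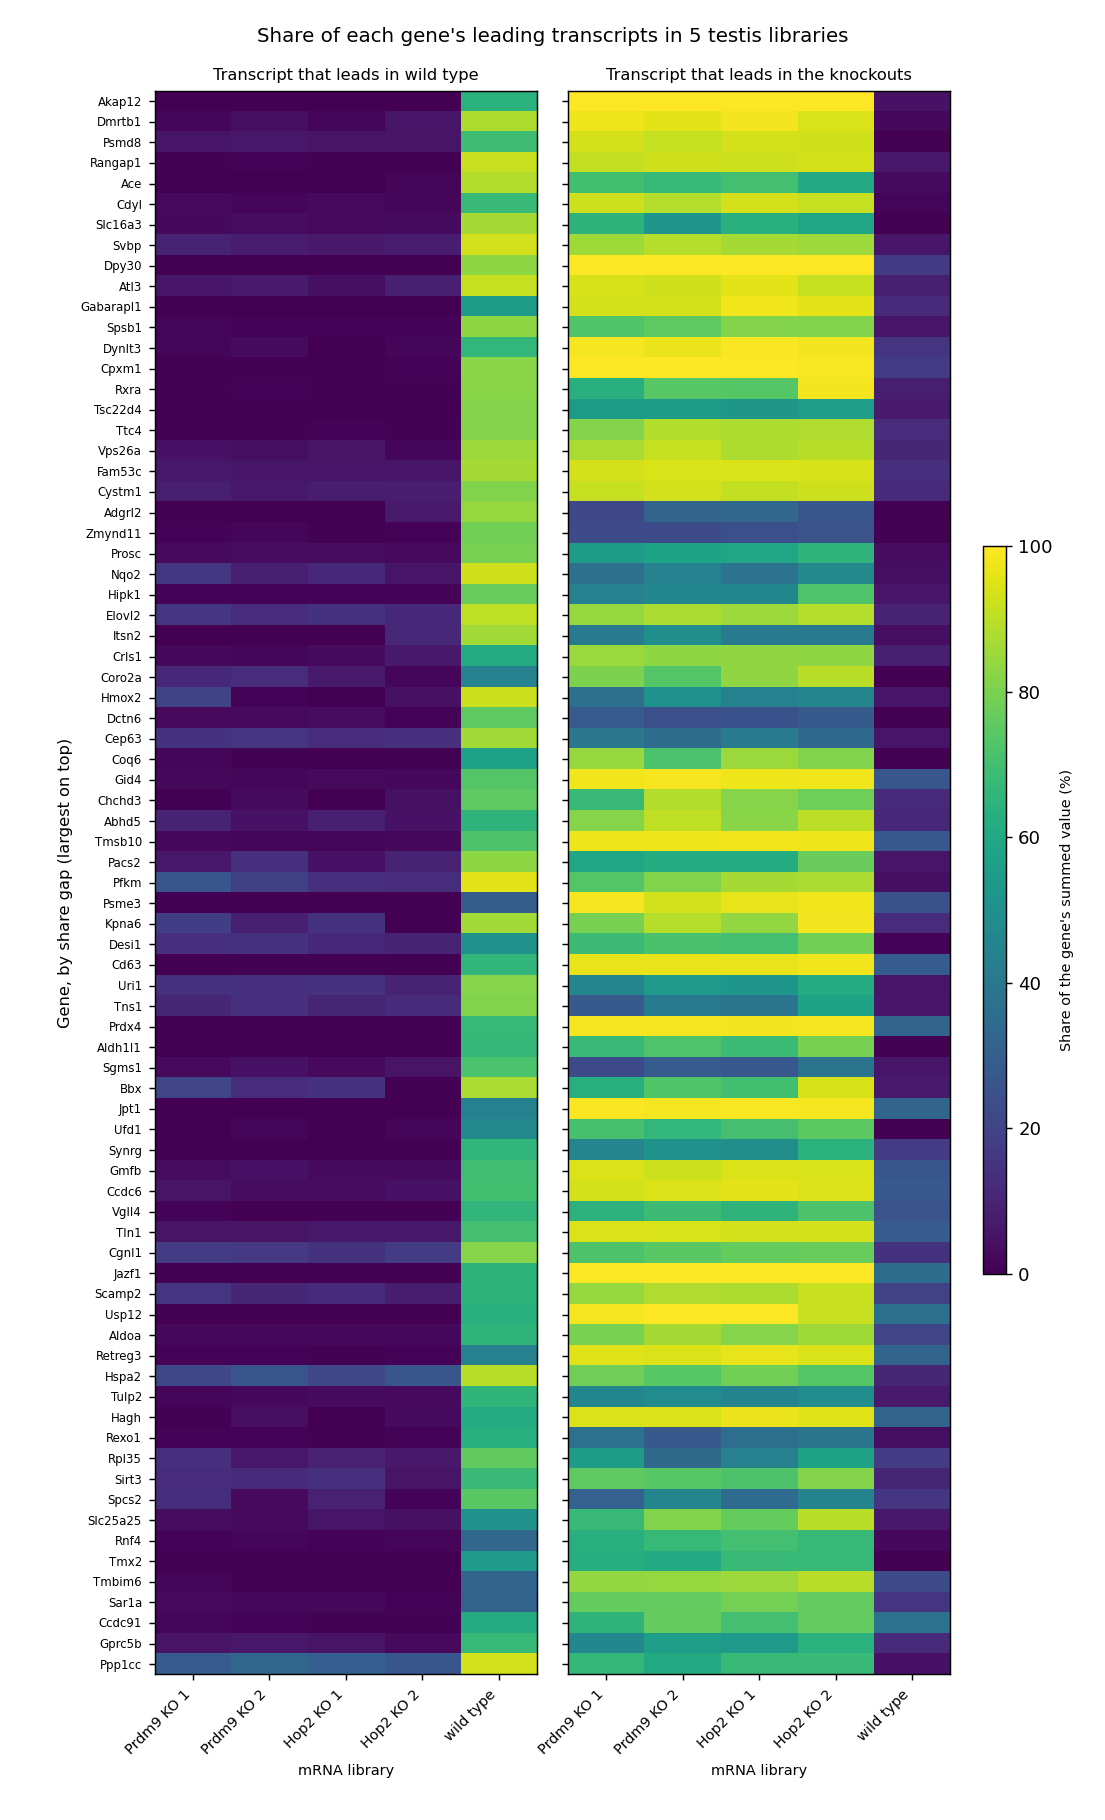
Share, in percent of the gene's summed value, of the transcript that leads in wild type (left) and of the one that leads in the knockouts (right) for the 77 genes (rows, largest share difference on top) in 5 mRNA libraries (columns). The 4 knockout columns mostly look alike within each panel and the wild-type column has the opposite shade. The choice of genes gives this in large part, so nothing is read from it. The knockout leaders of some genes, such as Rxra, Hipk1 and Tns1, vary more among the knockouts.

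Ace, Cdyl, Dpy30 and Pfkm each have several RefSeq gene starts, of which at least 1 lies within 1000 bases of a break peak and another does not. Promoter windows of a start of each kind, 250 bases before to 50 after the start, are printed here because a second start is a place where a second transcript can begin, and because the break map gives a readout at them that the choice of genes did not use. The sequences are RefSeq's, on GRCm38.p6, on the gene's own strand. No transcript annotation links a start to a transcript of the tables here, so which start serves which transcript is not stated. Capitals mark a match to TATAAA on either strand.

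Ace start 1 (chr11:105967698-105967997, plus strand): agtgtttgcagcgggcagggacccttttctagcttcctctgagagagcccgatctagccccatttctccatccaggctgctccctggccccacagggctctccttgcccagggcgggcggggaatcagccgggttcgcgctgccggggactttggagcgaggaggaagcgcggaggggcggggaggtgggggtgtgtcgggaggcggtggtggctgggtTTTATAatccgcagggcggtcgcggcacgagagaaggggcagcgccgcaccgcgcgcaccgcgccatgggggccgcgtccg
Ace start 2 (chr11:105974939-105975238, plus strand): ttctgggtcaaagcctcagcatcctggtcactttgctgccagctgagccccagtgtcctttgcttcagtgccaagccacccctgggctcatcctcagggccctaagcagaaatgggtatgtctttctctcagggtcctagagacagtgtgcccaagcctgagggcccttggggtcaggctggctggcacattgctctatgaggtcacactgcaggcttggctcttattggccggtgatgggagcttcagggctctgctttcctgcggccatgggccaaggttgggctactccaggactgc
Cdyl start 1 (chr13:35741212-35741511, plus strand): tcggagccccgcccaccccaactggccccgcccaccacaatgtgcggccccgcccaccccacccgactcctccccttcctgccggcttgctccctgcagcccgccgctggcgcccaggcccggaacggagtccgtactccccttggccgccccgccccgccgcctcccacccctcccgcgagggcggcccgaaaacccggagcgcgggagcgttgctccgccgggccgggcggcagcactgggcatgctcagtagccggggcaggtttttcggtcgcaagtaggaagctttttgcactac
Cdyl start 2 (chr13:35659612-35659911, plus strand): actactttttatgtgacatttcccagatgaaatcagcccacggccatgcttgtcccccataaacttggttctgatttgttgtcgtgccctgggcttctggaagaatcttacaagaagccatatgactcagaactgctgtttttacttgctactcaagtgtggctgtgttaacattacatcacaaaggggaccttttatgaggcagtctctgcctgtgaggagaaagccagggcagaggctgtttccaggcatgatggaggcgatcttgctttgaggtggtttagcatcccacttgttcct
Dpy30 start 1 (chr17:74323895-74324194, minus strand): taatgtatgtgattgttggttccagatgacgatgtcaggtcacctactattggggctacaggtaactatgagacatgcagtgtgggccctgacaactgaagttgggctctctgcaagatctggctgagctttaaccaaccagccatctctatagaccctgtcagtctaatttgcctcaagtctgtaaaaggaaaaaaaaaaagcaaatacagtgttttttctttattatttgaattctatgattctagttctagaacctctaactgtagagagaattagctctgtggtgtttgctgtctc
Dpy30 start 2 (chr17:74316384-74316683, minus strand): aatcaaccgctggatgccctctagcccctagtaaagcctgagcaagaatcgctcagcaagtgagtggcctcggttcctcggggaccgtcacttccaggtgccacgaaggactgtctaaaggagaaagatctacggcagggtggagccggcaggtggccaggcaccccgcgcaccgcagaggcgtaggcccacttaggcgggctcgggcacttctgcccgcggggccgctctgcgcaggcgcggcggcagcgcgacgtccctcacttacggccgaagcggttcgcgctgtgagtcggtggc
Pfkm start 1 (chr15:98092339-98092638, plus strand): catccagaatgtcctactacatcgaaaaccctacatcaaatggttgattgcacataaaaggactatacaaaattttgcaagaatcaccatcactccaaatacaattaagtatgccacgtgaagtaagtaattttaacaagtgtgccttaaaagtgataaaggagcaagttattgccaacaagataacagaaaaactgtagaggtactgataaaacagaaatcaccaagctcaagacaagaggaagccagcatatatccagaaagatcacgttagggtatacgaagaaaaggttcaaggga
Pfkm start 2 (chr15:98108221-98108520, plus strand): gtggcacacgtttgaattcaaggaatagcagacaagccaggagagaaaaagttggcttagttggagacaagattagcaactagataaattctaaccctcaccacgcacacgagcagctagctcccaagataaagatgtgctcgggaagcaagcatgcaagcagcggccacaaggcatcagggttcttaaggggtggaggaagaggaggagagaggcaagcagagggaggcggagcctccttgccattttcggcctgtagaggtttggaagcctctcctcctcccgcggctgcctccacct

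Start 1 of Ace, at base 105967948, lay in a break peak and was 69.7% G+C with 29 CpG, whereas start 2, at base 105975189, was 6231 bases from the nearest peak and held 2 CpG. Start 1 of Cdyl lay in a peak with 32 CpG, and start 2 was 79564 bases away from one with 3 CpG. For Dpy30 the order was the other way round: start 2 lay in a peak with 30 CpG, and start 1, upstream on the minus strand, was 4953 bases away with 1 CpG. Pfkm did not pair CpG with breaks in this way, since start 1 lay in a peak at 36.7% G+C with 4 CpG, and start 2 was 14758 bases away at 53.7% with 9 CpG.

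Across the 77 genes, totals at least 2-fold higher in wild type than in every knockout were found in 53, against 24.1% of all 4694 kept genes, and at least 2-fold lower in 1, against 18.2%. The choice used the same contrast, so nothing is read from this. The median fold of the total, wild type over the mean of the knockouts, was 3.47, and 1.06 over all kept genes. With each column rescaled to the same sum, 34 genes were higher, against 11.6% of all kept genes, and 3 lower, against 37.9%, and the medians were 1.89 and 0.581. The role groups below were made afterwards, and their counts use the same contrast, so nothing is read from those either.

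The 6 genes of the cell surface and of signalling include the largest and the smallest differences of the 77. Totals at least 2-fold higher in wild type than in every knockout were found in 3 of the 6, with and without rescaling. Over all kept genes the share was 11.6% with and 24.1% without rescaling. Ace encodes angiotensin-converting enzyme, known for a somatic form and a shorter testis form that starts within the gene. Its wild-type leader (ENSMUST00000001964) was listed at 0, 0.0310, 0 and 0.625 in Prdm9 KO 1, Prdm9 KO 2, Hop2 KO 1 and Hop2 KO 2, the order kept below, and at 714 in wild type. Its knockout leader (ENSMUST00000001963) was at 46.7, 32.7, 47.7 and 30.6 in the knockouts and 24.2 in wild type. The first transcript was thus near 0 in all 4 knockouts and made up 88.6% of the gene in wild type. The second was somewhat lower in wild type than in every knockout as deposited, and more than 2-fold lower after rescaling.

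Akap12, a scaffold that anchors protein kinase A, had the largest share difference of the 77 genes, taking for each gene the smallest of its 4 differences. Its knockout leader (ENSMUST00000045730) held 99.9, 99.8, 100 and 99.8% of the gene in the knockouts and 4.75% in wild type, with values of 129, 149, 119 and 148 against 58.3. The transcript that led in wild type (ENSMUST00000216139) was at 0.0629, 0.0483, 0 and 0.0603 in the knockouts and at 785 in wild type. No knockout library overlapped wild type in either transcript, which the choice of genes gives in large part.

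Ppp1cc encodes a catalytic subunit of protein phosphatase 1, from which the testis is known to make a germ-cell splice form, PP1γ2. Its wild-type leader was measurable in every knockout, at 73.6, 92.7, 86.3 and 76.0, and stood at 1180.5 in wild type; its share was 28.8, 32.9, 29.9 and 26.7% against 93.0%. The other transcript was at 169.6, 172, 194 and 192 in the knockouts and 63.6 in wild type. This gene was the last to pass the choice: the smallest of its 4 differences was 0.601, and that of Gprc5b, an orphan G protein-coupled receptor, was 0.602. Just outside were Stard10 at 0.599 and Map2k7 at 0.598.

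Cpxm1, a carboxypeptidase-like secreted protein, and Adgrl2, the adhesion receptor latrophilin 2, exchanged transcripts at a gene total that was almost constant as deposited. The Cpxm1 total was 103, 81.4, 118 and 102 in the knockouts and 104 in wild type, but its knockout leader stood at 102, 81.4, 118 and 101 against 18.3 and the other transcript at 0.156, 0, 0.112 and 0.981 against 85.6. The Adgrl2 total was 27.6, 24.1, 25.3 and 21.9 against 24.1, and its wild-type leader took 84.3% in wild type with 0 to 7.20% in the knockouts. In both genes the wild-type total lay within the range of the knockouts as deposited, and below it after rescaling.

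Among 14 regulators of transcription, chromatin and nuclear transport, 12 had totals at least 2-fold higher in wild type than in every knockout. After rescaling 7 had, and none was lower on either scale. Of all kept genes 24.1% were higher, and 11.6% after rescaling. Dmrtb1 (DMRT6) is a transcription factor that acts when spermatogonia turn to meiosis. Its knockout leader stood at 44.5, 39.1, 37.0 and 32.2 in the knockouts and 28.7 in wild type, and its wild-type leader at 0.688, 1.71, 0.646 and 1.95 against 1253. The first was slightly lower in wild type than in any knockout as deposited, and further below them after rescaling. The second supplied most of a total of 1426 that was 34.1 to 45.7 in the knockouts.

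Cdyl encodes a chromodomain protein that binds repressive histone marks; it belongs to a family that includes the testis-specific Cdy genes of primates. Its knockout leader (ENSMUST00000163595) was at 25.9, 24.0, 27.5 and 24.2 in the knockouts and 4.14 in wild type, where its share was 1.45%. The wild-type leader (ENSMUST00000075220) was at 0.682, 0.346, 0.8 and 0.511 in the knockouts and 192 in wild type. Dpy30 encodes a core subunit of the complexes that methylate histone H3 at the lysine that PRDM9 also modifies. As deposited, its knockout leader was a little lower in wild type, at 38.8, 41.4, 42.2 and 48.0 against 34.3. After rescaling this transcript was more than 2-fold lower than in every knockout. The wild-type leader was listed at 0, 0, 0 and 0.0752 in the knockouts and at 168 in wild type. In Cdyl the knockout leader was nearly gone from wild type, whereas in Dpy30 it still held 16.9% of the gene there.

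Rangap1, which activates the GTPase of the nuclear transport factor Ran, exchanged transcripts with a higher total. Its knockout leader was at 75.3, 67.0, 79.4 and 78.7 against 26.2 and its wild-type leader at 0.602, 0.827, 0.429 and 0.648 against 358. Kpna6, an importin that carries proteins into the nucleus, had its knockout leader at 34.0, 35.2, 36.7 and 35.2 against 37.0, just above the knockouts as deposited and below them after rescaling, and its second transcript stood at 7.96, 3.41, 6.38 and 0.0412 in the knockouts and 248 in wild type. Kpna6 also varied among the knockouts, where the second transcript held 18.6, 8.61, 14.6 and 0.115% of the gene.

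Rxra, a nuclear receptor that pairs with retinoic acid receptors, had a wild-type leader at 0.492, 0.635, 0.258 and 0.244 in the knockouts and 66.0 in wild type, and a knockout leader at 46.2, 47.8, 46.8 and 41.4 against 6.89. Tsc22d4, a leucine-zipper protein, had a wild-type leader listed at 0, 0.409, 0.230 and 0 in the knockouts against 401. Zmynd11, a reader of methylated histone H3.3, had the most annotated transcripts of the 77, 26; its wild-type leader took 78.5% in wild type and 0.396 to 1.74% in the knockouts, where the leader held only 22.4 to 25.6%. The knockout RNA of Zmynd11 was therefore spread over many transcripts and the wild-type RNA was not.

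The kinase Hipk1, the zinc-finger protein Jazf1, the HMG-box protein Bbx, the TEAD cofactor Vgll4, the prefoldin-like Uri1 and the exonuclease-like Rexo1 complete this group. Jazf1 had its knockout leader at 24.2 to 27.6 against 23.6, just below the knockouts as deposited and further below after rescaling. Its second transcript was at 0.0269 to 0.0705 against 43.4. Vgll4 had a total of 33.4 to 47.4 against 41.9, in which 65.8% belonged in wild type to a transcript that held 0.117 to 0.821% in the knockouts. The wild-type shares of the leaders of Hipk1, Bbx, Uri1 and Rexo1 were 76.8%, 87.3%, 82.0% and 63.1%.

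**Figure D2:**
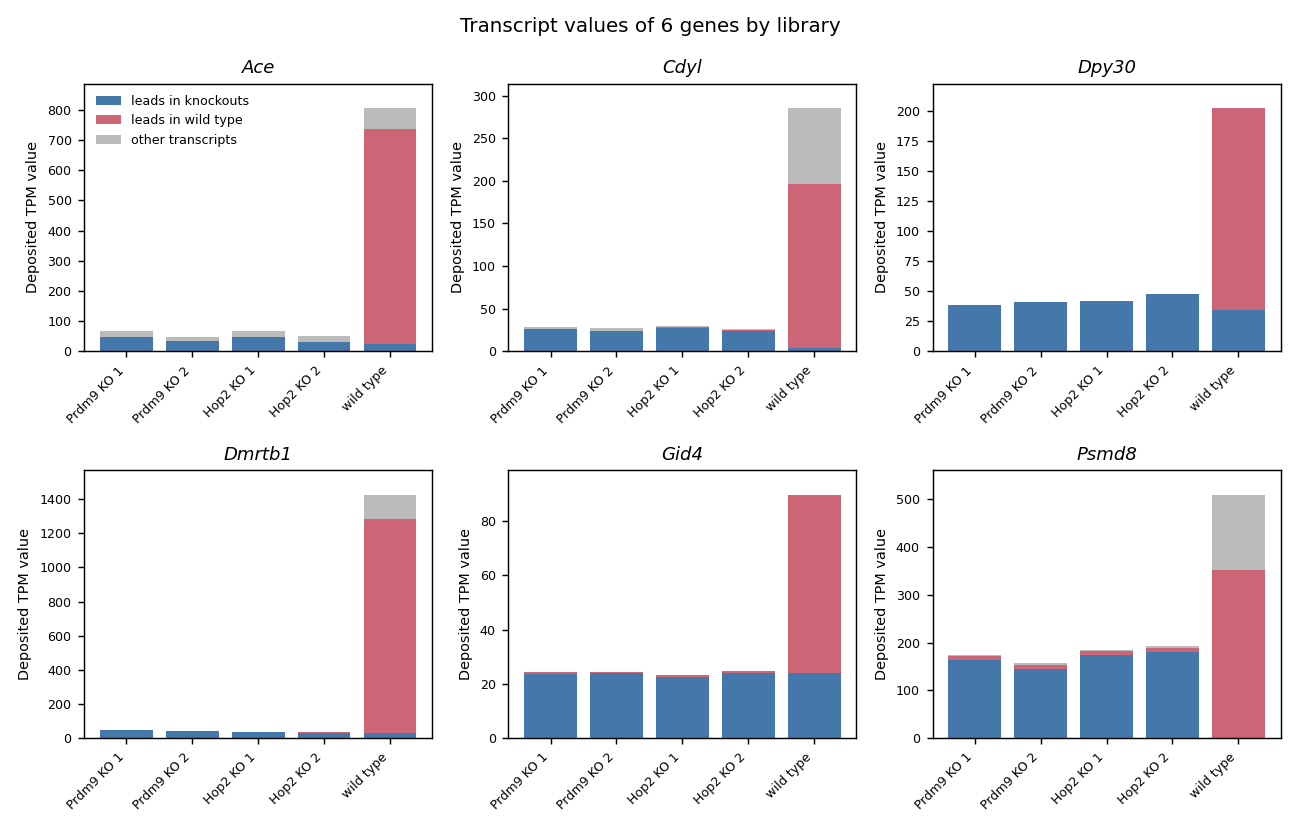
Deposited TPM values (y axis, linear from 0) of the transcripts of 6 genes in 5 libraries (x axis), stacked: the transcript that leads in the knockouts (blue), the one that leads in wild type (red) and all others (grey). The blue part of Dmrtb1, Gid4 and Dpy30 is of like height in all 5 bars with red added in wild type, while the blue part of Psmd8 and Cdyl is small or lost in wild type.

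Of 11 genes of protein turnover, chaperones and the ribosome, 10 had totals at least 2-fold higher in wild type, 5 after rescaling. The shares over all kept genes were 24.1% and 11.6%. Psmd8 encodes a subunit of the lid of the proteasome's regulatory particle. Its knockout leader was at 162, 144, 173 and 179 in the knockouts and at 0.00550 in wild type, and the wild-type leader at 9.68, 10.2, 10 and 9.81 against 351. A transcript that carried 91.4 to 93.6% of the gene in the knockouts was therefore almost absent from the wild-type estimate. Ufd1, a partner of the segregase p97, was similar: its knockout leader was at 29.3 to 35.5 in the knockouts and in effect at 0 in wild type (5.24e-09).

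Gid4, the substrate receptor of the GID ubiquitin ligase, and Ttc4, a co-chaperone of HSP90, had a knockout leader of similar level in all 5 libraries as deposited, and lower in wild type after rescaling. For Gid4 this was 23.7, 24.1, 22.7 and 24.1 in the knockouts against 23.9 in wild type, beside a second transcript at 0.532, 0.373, 0.585 and 0.505 against 65.8. For Ttc4 it was 18.8, 19.0, 19.6 and 21.7 against 18.7, beside 0.128, 0.106, 0.175 and 0.192 against 119. Usp12, a deubiquitinase, was listed at 0 in all 4 knockouts for the transcript that stood at 77.4 in wild type, so no fold is given.

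Spsb1, which brings substrates to a ubiquitin ligase, had a knockout leader at 20.8, 26.7, 22.3 and 18.3 against 6.75 and a wild-type leader at 0.391, 0.346, 0.307 and 0.230 against 93.9. The SUMO-directed ligase Rnf4, the SUMO protease Desi1 and the proteasome activator Psme3 also belong here, with wild-type leaders at 32.9%, 51.5% and 29.3% in wild type. Psme3 and Rnf4 thus had no transcript with a majority there. Hspa2, the germ-cell HSP70 chaperone and 1 of the 10 pachytene markers, had a wild-type leader at 1679 against 37.7 to 45.8 and a knockout leader at 206 against 114 to 143, which was no longer above every knockout after rescaling. Rpl35, a ribosomal protein, had a total within the range of the knockouts as deposited and below it after rescaling, with 75.4% against 6.46 to 13.6% for its wild-type leader, a value that is uncertain because ribosomal protein genes have near-identical processed copies.

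Metabolic, redox and mitochondrial enzymes formed the largest group, 17 genes. Of these, 8 had totals at least 2-fold higher in wild type and 9 did not, against 24.1% higher over all kept genes. After rescaling 5 were higher, against 11.6%, and 1, Aldh1l1, lower, against 37.9%. Slc16a3 encodes the lactate exporter MCT4. Its knockout leader was at 24.0, 16.2, 29.9 and 14.5 in the knockouts and listed at 0 in wild type, and its wild-type leader at 0.856, 1.08, 1.27 and 0.754 against 26.9, with a total of 24.7 to 47.0 in the knockouts and 31.1 in wild type. Enzymes of glycolysis were among the group. Pfkm, the muscle-type phosphofructokinase, had a knockout leader at 15.9, 20, 21.1 and 24.9 against 6.72 and a wild-type leader at 5.80, 4.72, 3.27 and 3.65 against 157. Aldoa, aldolase A, had a total of 727 to 1048 against 877, in which the knockout leader was at 779, 629, 859 and 826 against 185 and the wild-type leader at 21.7, 16.6, 24.3 and 22.5 against 573. Aldoa has retrogene copies in mouse, so its split among transcripts is uncertain.

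The folate enzyme Aldh1l1 was the member of this group whose total was lowest in wild type relative to the knockouts, at 106 against 201 to 215. Its knockout leader was at 145, 155, 137 and 163 in the knockouts and 0.704 in wild type, and its wild-type leader at 0.284, 0.161, 0.313 and 0.208 against 70.8. Coq6, a coenzyme Q hydroxylase, gave 16.0 to 21.5 against 0.305 and 0.0718 to 0.383 against 25.5 for the same pair. Both genes thus showed a knockout leader with under 1% of the gene in wild type.

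Lipid enzymes included Elovl2, which elongates polyunsaturated fatty acids, Crls1, the cardiolipin synthase, Sgms1, a sphingomyelin synthase, and Abhd5, the coactivator of adipose triglyceride lipase. Elovl2 exchanged transcripts at 91.2 to 121 against 14.7 and 11.6 to 20.8 against 142. Sgms1 had a wild-type leader at 0.738 to 1.37 against 242, and its knockout leader was also higher in wild type on either scale, 7.04 to 9.43 against 20.5. The knockout leader of Abhd5 varied among the knockouts, at 116, 213, 134 and 231, all above the 40.1 of wild type.

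Redox enzymes were Hmox2 (heme oxygenase 2), Prdx4 (a peroxiredoxin of the endoplasmic reticulum), Nqo2 (a quinone reductase) and Hagh (glyoxalase II). Hmox2 had a wild-type leader at 16.3, 0.849, 2.77e-05 and 4.28 in the knockouts and 979 in wild type, where it was 92.1% of the gene. The Hmox2 values of the knockouts themselves ranged widely, with Prdm9 KO 1 far above the other libraries. Prdx4 had 0.118 to 0.223 against 152 for its wild-type leader and 89.2 to 152 against 74.0 for the other. Hagh had both higher in wild type on either scale, 0 to 2.75 against 368 and 58.4 to 85.8 against 194.

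The vitamin B6-binding protein Prosc, the mitochondrial scaffold Chchd3, the mitochondrial deacetylase Sirt3 and the ATP-Mg carrier Slc25a25 complete the group, with wild-type leaders at 79.9%, 75.0%, 67.9% and 50.8% of the gene. In the knockouts these transcripts held 2.48 to 3.33%, 0 to 4.36%, 5.37 to 13.7% and 2.63 to 5.74%.

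Of 10 genes of the cytoskeleton, centrosome and junctions, 6 had totals at least 2-fold higher in wild type (5 after rescaling) and none was lower. For all kept genes the share higher was 24.1%, and 11.6% after rescaling. Svbp, the partner of the vasohibins that remove tyrosine from tubulin, had a wild-type leader at 3.39, 2.73, 2.46 and 2.91 in the knockouts and 234 in wild type, beside a knockout leader at 28.7, 30, 31.9 and 33.3 against 15.1. Dynlt3, a dynein light chain, exchanged transcripts at a total of 30.9 to 41.8 against 43.9, above the knockouts as deposited and below them after rescaling; its knockout leader was at 30.5, 34.5, 37.0 and 41.2 against 6.77 and its wild-type leader at 0.377, 1.04, 0 and 0.679 against 29.0. Dctn6, a dynactin subunit, had 14.4 to 21.0 against 0.222 and 0.735 to 1.92 against 64.0. In these 3 genes the knockout leader was below every knockout library in wild type, down to a trace in Dctn6.

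Tmsb10 (thymosin beta 10, an actin-monomer binder) and Cep63, a centrosome protein, were higher in wild type in both leaders, with and without rescaling. Tmsb10 gave 216, 245, 243 and 298 against 845 for the knockout leader and 4.71, 4.81, 4.48 and 6.37 against 2206 for the wild-type leader. Gmfb, glia maturation factor beta, had its knockout leader at 27.9 to 34.8 against 30.6, within the knockouts as deposited and below them after rescaling. Its second transcript was at 0.828 to 1.67 against 79.0. The integrin adaptors Tln1 and Tns1, the coronin Coro2a and the junction protein Cgnl1 are the rest. Tln1 had a total of 60.5 to 70.6 against 66.0 and 5.13 to 6.64% against 70.1% for its wild-type leader.

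Membrane traffic, the endoplasmic reticulum and autophagy supplied 14 genes, 9 with totals at least 2-fold higher in wild type and 1, Cd63, lower. After rescaling 6 were higher and 2, Cd63 and Tmx2, lower. Among all kept genes 24.1% were higher and 18.2% lower, and after rescaling 11.6% and 37.9%. Cd63 is a tetraspanin of late endosomes. Its total was 179, 121, 179 and 166 in the knockouts and 39.3 in wild type, its knockout leader 172, 117, 173 and 163 against 11.4, and its wild-type leader 0.459, 0.481, 0.802 and 0.509 against 25.9. Even with a total below every knockout, Cd63 had a transcript that was higher in wild type than in any of them.

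Atl3, an atlastin that fuses endoplasmic reticulum membranes, had a knockout leader at 27.0, 24.4, 31.3 and 21.1 against 11.8 and a wild-type leader at 1.68, 1.92, 1.35 and 2.02 against 125. Gabarapl1, an ATG8-family protein of autophagosomes, had 130.2, 126, 155 and 156 against 80 and 0.391, 0.301, 0 and 0 against 368. Vps26a, a retromer subunit, had 28.1, 29.1, 30.9 and 30.5 against 21.3 and 1.62, 1.17, 1.84 and 0.629 against 168. In each of the 3 genes the knockout leader was lower in wild type than in every knockout, by less than 2-fold against at least 1 of them as deposited and by more than 2-fold against each after rescaling, and the second transcript was higher on either scale.

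Ccdc91, a partner of the GGA sorting adaptors, had the most extreme total of the 77, 21.1 to 26.0 in the knockouts and 917 in wild type, with both leaders higher in wild type, 0.112 to 0.307 against 565 and 14.7 to 19.7 against 343. Tmx2, a thioredoxin-related membrane protein, had a knockout leader at 88.5, 74.5, 99.2 and 88.8 in the knockouts and listed at 0 in wild type. The sorting and coat proteins Itsn2, Synrg, Pacs2, Scamp2 and Sar1a, the ER-phagy receptor Retreg3, the ER membrane protein Tmbim6 and the signal peptidase subunit Spcs2 complete the group. Synrg was listed at 0 in all 4 knockouts for the transcript that stood at 49.2 in wild type. Scamp2 had its knockout leader at 64.6 to 87.7 against 86.7, within the knockouts as deposited and below them after rescaling.

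The remaining 5 genes, Fam53c, Cystm1, Jpt1, Ccdc6 and Tulp2, all had totals at least 2-fold higher in wild type. In none was the knockout leader 2-fold lower. After rescaling these counts were 3 and 1. Totals were that much higher in 24.1% of all kept genes, and in 11.6% after rescaling. Fam53c had 29.4, 29.1, 29.0 and 27.3 against 16.8 and 2.03, 1.71, 1.76 and 1.78 against 109. Cystm1 had 26.4, 23.9, 24.2 and 27.4 against 53.3 and 2.49, 1.67, 2.14 and 2.26 against 350.0. In both the wild-type leader was far above every knockout, and the knockout leader was lower in wild type for Fam53c and higher for Cystm1, on either scale. As deposited, Ccdc6 and Jpt1 had the knockout leader at 21.7 to 25.4 against 24.0 and at 234 to 322 against 326, both below the knockouts after rescaling. Tulp2, a tubby-like protein, had totals of 153 to 179 against 1589.9.

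The wild-type leader was at least 2-fold higher in wild type than in every knockout in all 77 genes, with and without rescaling. The choice asked for a large share difference, so this outcome was nearly given by it and nothing is read from it. In a contrast that the choice also used, so as a description only, the knockout leader did not behave alike in all genes. It was at least 2-fold lower in wild type than in every knockout in 39 genes, at least 2-fold higher in 5 (Ccdc91, Tmsb10, Hagh, Cep63 and Sgms1) and neither in 33. After rescaling these counts were 56, 1 (Ccdc91) and 20, with 17 of the 33 passing to the lower class. As deposited it was below every knockout in 59 genes, and these 59 were below every knockout after rescaling too; of the 12 above every knockout, 6 still were.

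**Figure D3:**
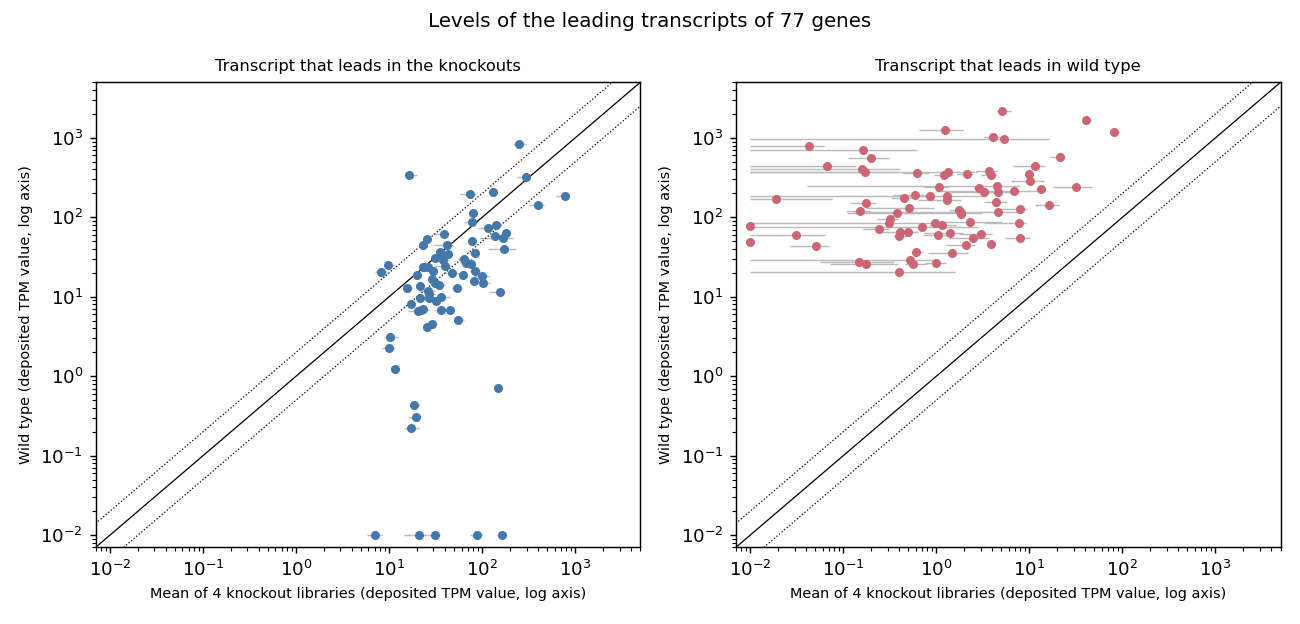
Deposited TPM values in wild type (y, log axis) against the mean of 4 knockout libraries (x, log axis; bars span the lowest to the highest library) for the transcript that leads in the knockouts (left) and in wild type (right) of 77 genes; values under 0.01 are drawn at 0.01. The solid line is equality and the dotted lines are 2-fold. The left panel has points on, below and above the line, and all points of the right panel lie above the upper dotted line.

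The knockouts were also compared with each other, a contrast the choice of genes did not use, although it did use their columns. It fixed a minimum sum in each, and it held the knockout shares of each chosen transcript within a band of 0.4, so small share differences between the knockouts are in part given by the choice and nothing is read from them. In gene values, limma called 2 of 14358 genes (0.0139%) at a Benjamini-Hochberg adjusted p under 0.05 between Prdm9 KO and Hop2 KO, and 0 of the 77. At an unadjusted p under 0.05 it had 445 genes (3.1%), of which 1 was among the 77. That gene was Hagh, with a log2 difference of -0.43 ± 0.12 (SE; limma, Benjamini-Hochberg adjusted p = 0.972). Its total was 61.5, 69.0, 88.3 and 88.4 in the 4 libraries, lower in both Prdm9 KO libraries than in both Hop2 KO libraries. The 77 differences ran from -0.43 (Hagh) to 0.60 (Tns1), and their median size was 0.11, against 0.13 over all genes tested. In simulated data for the gene test, log2 changes of 1, 2, 3 and -2 were recovered in 52%, 98%, 98% and 92% of cases. Changes of 2-fold or less could thus be missed.

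For the shares, limma on the arcsine square root called 0 of 14195 transcripts (0%) and 0 of the 186 that belonged to the 77 genes. An unadjusted p under 0.05 was reached by 367 transcripts (2.59%) and by 6 of the 186, from Gabarapl1, Pfkm, Spsb1 and Uri1, with an adjusted p of 1. The knockout leader of Pfkm held 73.2, 80.9, 86.6 and 87.2% and the wild-type leader 26.8, 19.1, 13.4 and 12.8%, so both Hop2 KO libraries lay farther from wild type (4.11% and 95.9%) than both Prdm9 KO libraries. The median size of the share difference was 2.06 percentage points in the 77 genes and 2.02 over all transcripts tested. In simulated data for this comparison (14195 transcripts), changes of 0.2, 0.4 and 0.6 on the arcsine square root scale were recovered in 10%, 80% and 94% of cases, so small differences could be missed.

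**Figure D4:**
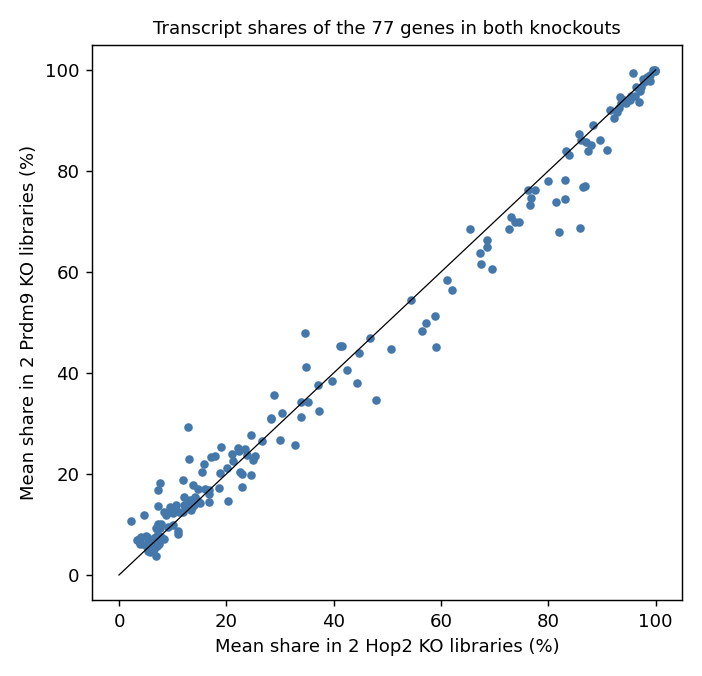
Mean share, in percent, of 186 transcripts of the 77 genes in 2 Prdm9 KO libraries (y) against 2 Hop2 KO libraries (x); the line is equality. The points follow the line from 0 to 100, and the largest distance, 17.3 points, belongs to a transcript of Rxra; the choice of genes confines the shares of the chosen transcripts in both knockouts.

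The effective number of transcripts (the inverse of the summed squared shares) had a median over the 77 genes of 1.73 in wild type, 1.64 and 1.63 in Prdm9 KO and 1.45 and 1.36 in Hop2 KO. Within the 4 knockouts, the share of the transcript with the largest wild-type difference had a median range of 2.81 percentage points. The range was over 10 points in 12 genes and over 20 in Slc25a25, Bbx and Hmox2, with a highest value of 21.9 for Slc25a25. In Slc25a25 this transcript, the knockout leader, held 67.9, 80.9, 76.2 and 89.8%, and in Bbx the wild-type leader held 21.0, 12.6, 14.2 and 0.429%. Other transcripts could vary more: the knockout leader of Rxra held 63.1, 74.2, 73.6 and 98.2%, that of Hipk1 43.6, 46.5, 45.9 and 72.3% and that of Tns1 28.4, 41.0, 38.4 and 57.5%, highest in Hop2 KO 2 in all 3 genes. For the transcript with the largest wild-type difference, Hop2 KO 2 lay farthest from the median of the knockouts in 21, as against 22, 22 and 12 for Prdm9 KO 1, Prdm9 KO 2 and Hop2 KO 1. The 22 of Prdm9 KO 1 include Usp12 and Synrg, which were at 0 in all 4 knockouts, a tie. Over 10514 transcripts of all kept genes the shares were 38.2%, 23.7%, 18.9% and 19.1% in the same order. Those left out transcripts of very low or very high mean knockout share, a limit not set for the 77, so the 2 sets are not compared. In the authors' deposited table of gene tests, which does not name the groups compared, p was under 0.05 for 835 of 21276 genes (3.92%) and for 2 of the 77, Hagh at 0.00588 and Spcs2 at 0.0486, with a q of 1 for both.

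No listed regulator of RNA processing passed the 0.6 difference, against 1.87% of the kept genes with at least 2 transcripts. With lists this short, none is near that share, so nothing is read from it. Some kept genes, such as Srsf7, Ddx17, Cpsf1 and Cpsf7, had 1 listed transcript and could not pass. Of 47 listed splicing regulators, 33 were kept by the minimum sum and none was among the 77; 6 of the 47 had totals at least 2-fold higher and 7 at least 2-fold lower in wild type. Of 22 listed names of 3′ end processing genes, 21 were found, 13 were kept and none was among the 77, with 9 higher and none lower. The name not found was a misspelling of Sympk, the scaffold symplekin, which is therefore not in these counts. It came closer to the 0.6 difference, at 0.587, than any of the 13: a transcript with 62.5% of the gene in wild type held 0.0523%, 0.570%, 0.106% and 3.79% in the knockouts. For Cpsf3, the endonuclease that cuts pre-mRNA before polyadenylation, the difference was 0.562: a transcript with 68.8% of the gene in wild type held 9.48%, 12.7%, 10.2% and 11.2% in the knockouts. Of 25 chromatin and transcription regulators of germ cells, 11 were kept and Cdyl was the only one among the 77, with 11 higher and 3 lower. Over all 4694 kept genes, 24.1% had totals at least 2-fold higher and 18.2% lower in wild type as deposited. The list counts of totals also take in genes that were not kept. Between the knockouts limma called none of the 46, 19 and 24 genes tested from these lists, in that order, and 1, 0 and 2 of them had an unadjusted p under 0.05.

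Of 19 genes known for a transcript made in germ cells, all were found, 9 were kept and Ace was the only one among the 77. The median difference over the 9 was 0.382, which includes Sod1 and Pim1, with 1 listed transcript each and so no possible shift. The rest had smaller shifts than Ace. Prkaca, the catalytic subunit of protein kinase A, had a transcript at 99.9%, 99.8%, 100% and 99.9% in the knockouts and 57.2% in wild type. Dnmt1, the maintenance DNA methyltransferase, had one at 74.3%, 71.8%, 74.6% and 76.0% against 33.3%. Hk1, a hexokinase known for sperm-specific forms, had one at 39.0%, 39.7%, 40.3% and 39.4% against 0.756%.

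The break map was the readout farthest from the choice. RefSeq promoter entries were found for 68 of the 77 genes, and 52 of them (76.5%) had 1 of the 17731 break peaks within 1000 bases of a start, against 77.5% of the 3813 kept genes with an entry. That share was near that of all kept genes, on 1 library and with no test. At least 2 RefSeq starts were listed for 27 of the 68 (39.7%), against 23.4% of 3464 kept genes with at least 2 transcripts. Ace, Cdyl, Coro2a, Dpy30, Hmox2, Jazf1, Pfkm, Sgms1 and Slc25a25 had a start at a peak and another without. All 77 genes are listed as protein coding.

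In the 110 promoter windows of the 68 genes, the full cyclic AMP response element TGACGTCA was found in 1 (0.909%), against 3.19% of 4921 windows of kept genes and 1.79% of all 32851. Its shorter form TGACGT, which lies within it, was found in 8 (7.27%), against 13.4% and 7.51%. The MYB motif AACNGTT was found in 0, against 3.03% and 4.45%, and TATAAA in 8 (7.27%), against 6.32% and 13.6%. Each was searched on both strands. Of the sequences printed above, only start 1 of Ace held any of the 4, the TATAAA match marked there. Median G+C was 62.8% in the 110 windows and 62.0% in those of all kept genes.

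Several limits apply to all the values. There was 1 wild-type library, so its spread is unknown, and shares rest on an estimator that divides reads among transcripts with common exons, so a low share of 1 of 2 similar transcripts can be an error of that division. Values at 0 are as listed and give no limit, because the depth is unknown.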

How the data were processed

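Values were the columns headed TPM that the authors deposited for genes and transcripts, made with kallisto after CASAVA base calling and tested with sleuth, per the submitters' processing notes. Because the column sums differ, they were treated as a signal on the scale the authors deposited, not as true TPM. Gene values equalled the transcript sums. The authors' deposited table of p-values and q-values per gene, which does not name the groups compared, was quoted as it stands. Break peaks were called by the authors with MACS2 2.1.0.20150420 on GRCm38 (mm10), per the submitters' processing notes. No source used here gives the annotation release.

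Shares were computed per gene, and the knockout leader is the transcript with the highest mean share over the 4 knockouts. Prdm9 KO and Hop2 KO (2 libraries each) were compared with limma 3.58.1 in R 4.3.3, with intensity trend and two-sided p-values adjusted by Benjamini-Hochberg over all features tested. The gene test used log2(value + 1) for genes with a mean of at least 1, so its fold changes understate those of low genes; the share test used the arcsine square root for transcripts with a mean share of at least 5% in genes with a sum of at least 20. The tests were tested on simulated data. Other steps used Python 3.11.15, pandas 2.3.3 and numpy 2.4.6. Motif and peak counts are descriptions, with peaks within 1000 bases of a start counted as at the start.

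The 20 genes with the largest differences, those at the threshold, those passing a test and those on the gene lists were named by rule; the other genes were added so that all 77 are named, and role groups were made afterwards. The genes and lists were chosen with earlier results of these data known. The labels do not tie libraries to separate mice, and the spread behind each p-value may therefore be technical. Read depth is unknown. Tables held 0 unused columns of per-sample values; 22 of the 28 samples were not analysed here.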

Additional observations from a re-analysis of the deposited data

How the results depend on the processing

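The number of genes taken was 77. It was 122 with a minimum gene sum of 10, 35 with a minimum of 50, 147 with a share difference of 0.5 and 36 with 0.7. Leaving out 1 knockout library at a time gave 77 to 85 genes, the 85 without Prdm9 KO 1; since the rule asks for the difference in every knockout, leaving one out can only add genes. Dropping transcripts under 1 in every column left 77. Between the knockouts, limma called 0 of the 77 genes and 0 of their transcripts under every alternative run (other pseudocounts, filters, scaling, no trend, all 5 libraries, a library left out). The count over the whole gene table moved between 0 and 11, the latter without Prdm9 KO 2, around the reported 2, and that over all transcripts was 0 throughout. Of the 77, unadjusted p-values under 0.05 were reached by 0 to 7 genes and 1 to 24 transcripts. With the replicate number as a block, 0 genes and 0 transcripts of the 77 were called, 7 genes and 16 transcripts had an unadjusted p under 0.05, and 8 genes were called in the whole table; the labels do not say that the numbers pair the libraries, there are only 2 pairs, and same-numbered libraries deviated together with a correlation of 0.413 over genes. Genes with a break peak at a start were 52, 51 with the start itself inside the peak and 54 within 5000 bases. Ranking peaks by the authors' value was not run, because the peak list carries no such value. Limits are the single wild-type library, the unknown age of the knockout mice, the unknown depth and the division of reads among similar transcripts.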

Other observations

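Below the minimum gene sum of 20, a minimum of 10 added 45 genes with the same kind of exchange, named here after their values were seen. Lmnb2 encodes lamin B2 and, by an alternative start, the spermatid form known as lamin B3. One of its transcripts held 0.459%, 1.31%, 0.429% and 1.21% of the gene in Prdm9 KO 1, Prdm9 KO 2, Hop2 KO 1 and Hop2 KO 2 and 96.0% in wild type. Kif2c, a kinesin that depolymerises microtubules at centromeres, had a transcript at 97.7%, 93.9%, 97.1% and 96.5% against 7.00%. Cdc14b, a cell-cycle phosphatase, had one at 0.349%, 1.20%, 1.03% and 0.684% against 90.2%. Bcl2l11, the cell-death gene Bim, had one at 0.206%, 0.317%, 0.233% and 0.378% against 82.5%. In each of the 4 genes the knockout libraries lay close together and wild type lay far from them. The same share difference was asked of these genes, so this is in large part given by the choice and nothing is read from it. Totals in the knockouts were low, such as 10.4 to 12.6 for Cdc14b. The shares of these genes thus rest on less RNA than those of the 77.

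Another 70 genes had a difference from 0.5 to 0.6, among them enzymes that neighbour Pfkm and Aldoa in glycolysis. The few named here were picked from the 70 after their values were seen, so no theme is read from them. Pkm, pyruvate kinase, had a transcript at 84.9%, 83.8%, 86.7% and 87.4% in the knockouts and 29.9% in wild type. Ldha, lactate dehydrogenase A, had one at 98.6%, 97.7%, 98.9% and 96.6% against 43.0%. Pfkfb3, which makes the activator of phosphofructokinase, had one at 26.9%, 22.3%, 22.9% and 18.1% against 79.8%. The proteasome subunit Psma6 had one at 0.0925%, 0.0424%, 0.0671% and 0.0826% against 57.8%, and the dynein light chain Dynll2 one at 98.8%, 98.0%, 98.7% and 98.7% against 43.2%. Psma6 and Dynll2 stand beside Psmd8 and Dynlt3 of the 77.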
